A study of Mus musculus with 6 samples.

Results

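Bone morphogenetic protein 4 (Bmp4), a secreted ligand of the TGF-beta superfamily, and 9 genes known as its targets or feedback regulators were followed. The cells were mouse embryonic stem cells (mESCs) labelled wild type or knockout for Setd2, the gene of the enzyme that trimethylates histone H3 at lysine 36. The 10 genes are Bmp4, Id1, Id2, Id3, Id4, Msx1, Msx2, Smad6, Bambi and Dusp9. A probe set, the group of short probes that Affymetrix arrays use to read a transcript, was taken as a member where the platform annotation named 1 gene for it and that gene was on this list. This gave 18 of the 45037 probe sets, for 10 of 18193 named genes.

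Total RNA was hybridised to 6 arrays, 3 from Setd2 wild type and 3 from Setd2 knockout mESCs of a 129SV/C57BL/6 background, with no treatment. Both genotypes were grown on feeder cells, which were then depleted by a short plating on gelatin and 1 feeder-free passage. The labels give neither the deleted part of Setd2 nor the number of cell lines or clones, so genotype and cell line cannot be told apart. The 2 groups also differed beyond Setd2. The Y-linked gene Eif2s3y read higher on every knockout array. Of 709 chromosome 8 genes bright enough to test, 86.3% were lower in the knockout, against 48.0% on the other autosomes and X. The part of these differences in the Bmp4 and Id values was not tested. The labels call the 3 arrays of a genotype biological repeats but do not say that these came from separate cultures, so p-values measure only the spread between these arrays.

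Bmp ligands bind paired type I and type II receptor kinases, which phosphorylate Smad1, Smad5 and Smad9. These join Smad4, enter the nucleus and activate target genes, among them the Id genes, whose products bind E proteins and keep them from DNA. In mESCs grown in serum, Bmp4 is known to hold back neural differentiation through the Id genes and to dampen Erk signalling through the phosphatase gene Dusp9. Smad6 and Bambi encode inhibitors that are induced by the pathway itself, and Msx1 and Msx2 are homeobox genes induced by Bmp in many embryonic tissues.

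The 250 bases before the annotated start of 7 member genes were read from RefSeq (GRCm38.p6), and those of Bmp4 and Id2 are shown because these are the members with such a window whose difference between the genotypes passed a test below. No window was read for Id1, Bambi and Dusp9. Capitals mark GGCGCC, the core of known Bmp response elements, and CCAAT, a general promoter motif, both searched on both strands, with no overlap between them in the printed windows. Positions count back from the start, with -1 as the base next to it.
Bmp4 (chr14:46390670-46390919, minus strand): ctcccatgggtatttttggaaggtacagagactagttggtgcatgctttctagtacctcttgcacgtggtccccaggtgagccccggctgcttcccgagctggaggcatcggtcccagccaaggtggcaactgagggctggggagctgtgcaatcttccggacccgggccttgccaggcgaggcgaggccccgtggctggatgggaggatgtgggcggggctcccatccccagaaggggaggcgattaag
Id2 (chr12:25096093-25096342, minus strand): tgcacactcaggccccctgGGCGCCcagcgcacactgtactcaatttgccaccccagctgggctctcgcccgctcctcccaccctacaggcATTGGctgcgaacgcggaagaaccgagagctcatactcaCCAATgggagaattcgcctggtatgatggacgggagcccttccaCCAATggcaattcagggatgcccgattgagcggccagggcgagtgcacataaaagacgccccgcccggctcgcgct
The Bmp4 window held neither motif. In the Id2 window GGCGCC lay at -231, and CCAAT lay at -159, -120 and -76. GGCGCC was also in the window of Id4, at -148, so in 2 of 7 member genes, against 9.59% of 32851 promoter windows of the same length. CCAAT was in 4 of the 7 and in 33.8% of all windows. These matches describe the letters of the windows and were not tested as binding sites.

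Values below are log2 MAS5 signals, where a difference of 1 is a factor of 2. Of the 18 member probe sets, 16 had a mean over the 6 arrays of at least 5.27, the 40th percentile of all probe sets, and were tested, with at least 1 for each of the 10 genes. The Setd2 probe set stood at 10.30 ± 0.01 on wild type and 9.49 ± 0.12 on knockout arrays (SD, n = 3 each; limma adjusted p = 0.0272), which checks the labels only if it lies in the deleted part. The mESC label was borne out by its markers: the 8 listed, led by Dppa5a and Tdgf1, averaged between 12.98 and 13.09 on every array. Replicate number set the arrays apart too: the fibroblast markers of the feeder list averaged 7.87 and 7.72 on number 1, in wild type and knockout, while numbers 2 and 3 gave 8.53 to 8.94. Arrays of the same number deviated together from their genotype means (r = 0.50, 0.23 and 0.24 across probe sets for numbers 1, 2 and 3). Wild type 2 with knockout 3 gave 0.23 and wild type 3 with knockout 2 gave 0.17, so number 1 stood apart while numbers 2 and 3 were hardly told from each other. Each difference is therefore given from the planned fit without a block and, where the call differs, from a blocked fit, with a term for the replicate number, which compares knockout with wild type within a number.

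The ligand was lower in knockout cells within every replicate number. Bmp4 (1422912_at) read 11.41, 9.91 and 10.59 on wild type arrays 1, 2 and 3, and 10.01, 8.92 and 9.72 on knockout arrays 1, 2 and 3. The genotypes overlapped, because wild type array 2 lay below knockout array 1, but within each number the knockout array was the lower one, by 1.40, 0.99 and 0.87 on the log2 scale. The means were 10.63 ± 0.75 in wild type and 9.55 ± 0.56 in knockout cells (SD, n = 3 each), a signal 2.13-fold lower in the knockout. Without the block the difference was -1.09 ± 0.39 (SE; 95% interval -1.98 to -0.19; limma adjusted p = 0.324). With the replicate block Bmp4 fell, at -1.09 ± 0.11 (SE; 95% interval -1.33 to -0.84; limma adjusted p = 0.000357). With the block the call held without both arrays numbered 1, 2 or 3, at differences of -0.93, -1.14 and -1.19, and was lost without limma's intensity trend (adjusted p = 0.131). In bulk RNA, fewer cells that express a gene and less RNA per cell cannot be told apart.

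Id1, an inhibitor of E proteins and the best known direct target of Bmp signalling in mESCs, was lower within every number too. Id1 (1425895_a_at) read 12.40, 11.40 and 11.64 in wild type and 11.90, 10.74 and 10.78 in knockout cells on arrays 1, 2 and 3. The genotypes overlapped here too, through the high knockout array 1, and within the numbers the knockout was lower by 0.50, 0.66 and 0.86. The difference was -0.67 ± 0.35 without the block (SE; 95% interval -1.47 to 0.13; limma adjusted p = 0.518). With the replicate block Id1 fell, at -0.67 ± 0.08 (SE; 95% interval -0.86 to -0.49; limma adjusted p = 0.00109), a signal 1.59-fold lower. Without both arrays numbered 1 Id1 fell in either fit, by 0.76 on the log2 scale (limma adjusted p = 0.00164 without the block). That fit without the block called 2033 probe sets, against 175 with all arrays. Without both arrays numbered 2 or 3 the differences were -0.68 and -0.58. These missed the threshold without the block (limma adjusted p = 0.9996 and 0.9997) and passed with it (0.00306 and 0.0153). The blocked call, like that of Bmp4, was lost without the intensity trend (adjusted p = 0.157).

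Id2, a paralog with the same helix-loop-helix function, lay on the other side. Its brightest probe set (1435176_a_at) read 9.95, 9.52 and 9.24 in wild type and 10.66, 10.05 and 9.38 in knockout cells, higher in the knockout within each number but overlapping between the genotypes. That rise within each number depends on how numbers 2 and 3 are matched, as knockout array 3 (9.38) lay below wild type array 2 (9.52). The difference was 0.46 ± 0.32 without the block (SE; limma adjusted p = 0.654). With the replicate block Id2 rose, at 0.46 ± 0.12 (SE; 95% interval 0.20 to 0.72; limma adjusted p = 0.0388). This call was lost without both arrays numbered 1 or 2 (adjusted p = 0.0769 and 0.173), without the filter on dim probe sets (0.0628), with array medians set equal (0.0536) and in limma with no trend (0.243).
With all arrays the other tested Id2 probe sets missed the threshold in both fits, at 0.42 (1422537_a_at; blocked 95% interval -0.05 to 0.88) and 0.55 (1453596_at; -0.14 to 1.25). In the blocked fit without both arrays numbered 1, 1422537_a_at was higher by 0.67 (limma adjusted p = 0.0322). That fit called 3352 probe sets, against 2129 with all arrays. Without both arrays numbered 2 or 3 this probe set missed the threshold, at 0.56 and 0.03 (blocked limma adjusted p = 0.267 and 0.957). Within numbers 1, 2 and 3 it differed by -0.09, 0.15 and 1.20. The dimmest, 1453596_at, was the one member probe set whose genotypes did not overlap, with 5.62, 5.61 and 5.60 in wild type and 6.47, 6.27 and 5.75 in knockout cells, against 18.1% of all tested probe sets.

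Id3 and Id4 showed no difference past the threshold in either fit. Id3 (1416630_at), bright in these cells, read 9.79, 10.21 and 10.30 in wild type and 9.99, 10.32 and 10.32 in knockout cells, and differed by 0.11 (blocked 95% interval -0.09 to 0.31). It was higher in the knockout within every number, by 0.20, 0.11 and 0.02. A fall of the size seen for Id1 lies outside that interval. The 3 Id4 probe sets differed by 0.13, 0.19 and -0.37, and their blocked intervals ran from -0.92 at the lowest to 0.64 at the highest. Id4 was dimmer and uneven, with 8.44, 6.74 and 6.94 in wild type and 8.18, 7.29 and 7.04 in knockout cells at its brightest probe set (1423259_at).

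The Msx genes were dim in both genotypes. Msx1 (1448601_s_at) read 6.29, 5.99 and 5.49 in wild type and 6.24, 6.17 and 5.97 in knockout cells, a difference of 0.20 (95% interval -0.47 to 0.88). Msx2 (1449559_at) read 6.24, 6.61 and 6.64 against 6.94, 7.24 and 5.87, a difference of 0.19 (-0.64 to 1.02). Knockout arrays lay on both sides of the wild type arrays for Msx2. The second probe set of each gene was too dim to test and averaged 5.11 and 5.22 for Msx1 and 4.33 and 4.58 for Msx2 in wild type and knockout cells. No fall was detected in either gene, and a difference down to -0.47 or -0.64 lies within these intervals.

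The feedback genes did not differ past the threshold either. Bambi (1423753_at), which encodes a decoy receptor without kinase activity, read 9.19, 8.86 and 9.00 in wild type and 9.27, 8.82 and 9.04 in knockout cells. Its difference of 0.03 had a blocked 95% interval of -0.22 to 0.27, and its sign turned under centring on array medians. Smad6 (1422771_at), which encodes an inhibitory Smad, was scattered, at 6.95, 5.50 and 6.56 against 6.97, 6.87 and 5.98, with a difference of 0.27 ± 0.42 (SE).

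Dusp9, which encodes an Erk phosphatase, was read by 3 probe sets that gave like results. The brightest (1433845_x_at) stood at 10.78, 10.13 and 10.20 in wild type and 10.82, 10.01 and 9.96 in knockout cells, a difference of -0.11 (blocked 95% interval -0.31 to 0.09). The others differed by -0.12 and -0.28 (adjusted p in the blocked limma fit = 0.621 and 0.307). The dimmest, 1433844_a_at, passed in the blocked fit without both arrays numbered 1, at -0.48 (limma adjusted p = 0.0342). That fit called 3352 probe sets, against 2129 with all arrays. Without both arrays numbered 2 or 3 this probe set missed the threshold, at -0.10 and -0.25 (blocked limma adjusted p = 0.845 and 0.596). All 3 Dusp9 probe sets were higher in the knockout within number 1 and lower within numbers 2 and 3. Dusp9 lies on the X chromosome, and the genotypes differed in Y-linked genes: Eif2s3y read between 4.46 and 5.16 on wild type and between 11.16 and 11.57 on knockout arrays. The 419 tested X-linked genes had a median difference of 0.04. The part of this difference between the cells in the Dusp9 values was not tested.

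**Figure D1:**
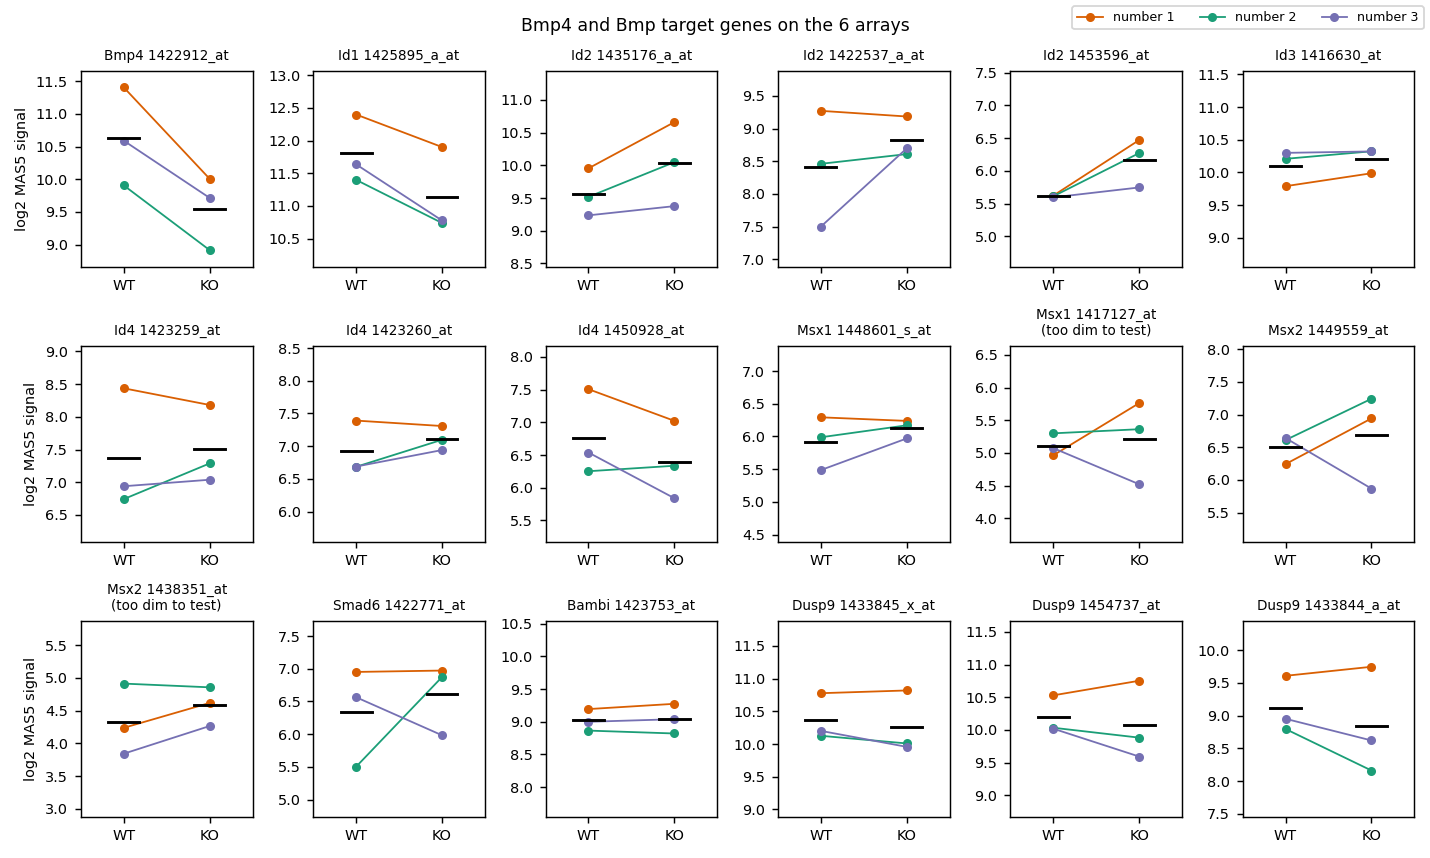
Log2 MAS5 signal of each of the 18 member probe sets (y axis; each panel spans 3 log2 units) in wild type (WT) and Setd2 knockout (KO) cells, with a line joining the arrays of the same replicate number and a black bar at the mean of 3 arrays. The 3 lines fall for Bmp4 and Id1 and rise for Id2 (1435176_a_at and 1453596_at) and, by at most 0.20, for Id3, and the arrays numbered 1 lie highest in most panels.

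Counted together, 0 of the 16 tested member probe sets passed limma's threshold (adjusted p below 0.05) without the block, against 0.648% of 27022 tested probe sets, and 1 had an unadjusted p under 0.05, against 11.7%. With the replicate block 3 of the 16 passed, against 7.88%, of which 2 were lower (Bmp4 and Id1, against 4.39%) and 1 was higher (Id2, against 3.49%). The knockout was lower within all 3 numbers at 2 member probe sets (21.1% of all tested) and higher within all 3 at 3 (Id2 1435176_a_at and 1453596_at, and Id3, against 22.3%). The median difference of the members was 0.12, and that of all tested probe sets was 0.01. Set side by side, the ligand differed by -1.09, Id1 by -0.67, the brightest probe sets of Id2, Id3 and Id4 by 0.46, 0.11 and 0.13, and Msx1 and Msx2 by 0.20 and 0.19. The differences between these genes were not tested.

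**Figure D2:**
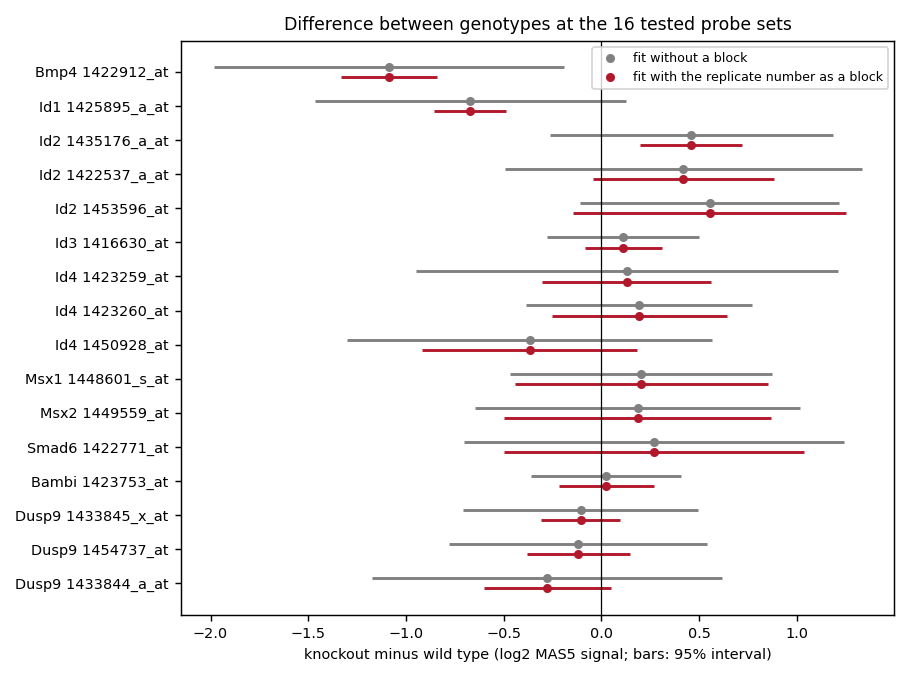
Knockout minus wild type difference in log2 MAS5 signal (x axis) at the 16 tested member probe sets, with 95% intervals from the fit without a block (grey) and with the replicate number as a block (red). The blocked intervals of Bmp4 (-1.33 to -0.84), Id1 (-0.86 to -0.49) and Id2 1435176_a_at (0.20 to 0.72) lie off 0, and the other 13 include it.

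The member values also differed by replicate number. At 14 of the 16 tested probe sets the array numbered 1 was the highest of its genotype in both wild type and knockout cells, against 28% of all tested probe sets, and taking each gene at its brightest probe set this held for 8 of 10 genes, against 32.7% of genes. The 1 member probe set that was lowest on number 1 in both genotypes was that of Id3, against 23.4% of all tested probe sets.
The sizes that follow describe this pattern and carry no test, since they were picked out after these values were seen. Bmp4 averaged 10.71 on number 1 and 9.78 on the other arrays, a difference of 0.92. Id1 was higher on number 1 by 1.01, and the brightest Id2, Id4 and Dusp9 probe sets by 0.76, 1.31 and 0.72.
Id3 went the other way, at 9.89 on number 1 and 10.29 on the others. Bambi, Msx1 and Smad6 differed by 0.30, 0.36 and 0.73, and Msx2 by 0.0018. What a replicate number stands for is not given in the sources used here. Of 17 tested feeder markers, 12 were lowest on number 1 in both genotypes and 2 were highest. The part of this marker shift in the member values was not tested.

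**Figure D3:**
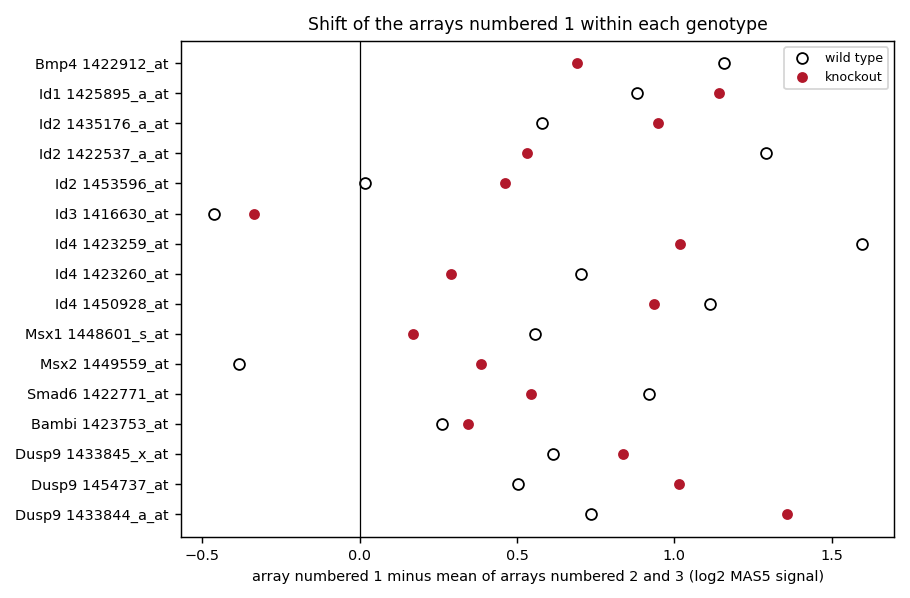
Array numbered 1 minus the mean of the arrays numbered 2 and 3 (x axis, log2 MAS5 signal) within wild type (open circles) and within knockout (filled circles) for the 16 tested member probe sets. Both points lie above 0 for 14 of them, both lie below 0 for Id3, and Msx2 has one on each side.

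Among the marker lists of other cell types, only the averages of primitive endoderm did not overlap between the genotypes. Each marker was taken at its brightest tested probe set. The 8 markers of primitive endoderm, an extraembryonic layer, averaged 7.56 to 7.81 on wild type and 6.35 to 6.66 on knockout arrays. At these probe sets 7 of 8 were lower in the knockout. Other tested probe sets of these genes differed by -0.11 (Sox17), 0.64 (Pdgfra), -0.69 (Dab2) and -0.90 (Col4a1). Of the 8 markers 2 fell without the block (Gata6 and Col4a1), against 0.736% of all genes called in either direction. With the block 6 fell, against 5.75% of all genes. The brightest, Col4a1 and Lama1, differed by -1.02 and -1.42. Col4a1 lies on chromosome 8, whose 709 tested genes differed by -0.34 at the median. The part of that shift in the Col4a1 value was not tested. The 5 tested trophectoderm markers averaged 8.15 to 8.65 in wild type and 8.54 to 9.34 in knockout cells. Without the block 0 rose, and with it 2 did (Cdx2 and Krt18), against 4.13% of all genes. The dimmer tested probe sets of these genes differed by 0.11 and 1.05 (Krt8), 0.35 and 0.25 (Tfap2c) and 0.70 (Eomes). Of these only a Krt8 probe set (1435989_x_at), picked out after its value was seen, passed with the block (limma adjusted p = 0.00129). Tfap2c and Krt18, the brightest of the 5, differed by 0.35 and 0.51.
The averages of the feeder list overlapped between the genotypes. Of its 17 genes 3 (Fn1, Pdgfrb and Twist1) were higher on every knockout array than on any wild type array. Across all tested probe sets 18.1% did not overlap, in either direction. Without the block 0 of the 17 passed the threshold, and with it 2 were higher (Fn1 and Pdgfrb), against 4.13% of all genes. Fn1 and Vim, the brightest, differed by 0.43 and -0.07. The 5 tested mesoderm markers, which share Eomes with the trophectoderm list, averaged 6.07 to 6.50 in wild type and 6.25 to 6.79 in knockout cells, with 0 past the threshold in either fit and differences of 0.60 for Eomes and -0.28 for Mesp1. No tested marker of these lists was at 0 on any array, but the filter on the mean makes that likely beforehand. As detection calls were not used, this does not show that the dim markers were expressed. The part of these cell type markers in the Bmp4 and Id results was not tested.

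**Figure D4:**
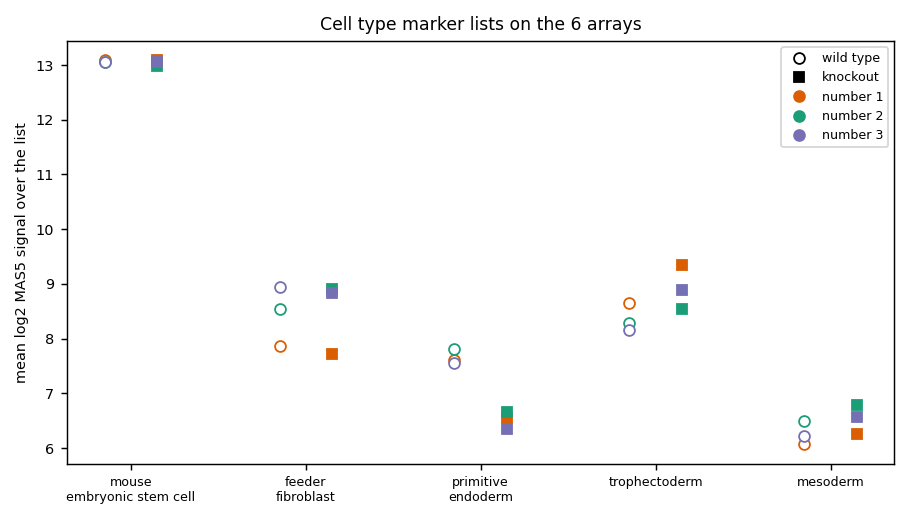
Mean log2 MAS5 signal over the tested genes of 5 cell type marker lists (y axis) on each array, with open circles for wild type, filled squares for knockout and colours for the replicate number. Primitive endoderm markers lie at 6.35 to 6.66 on knockout and 7.56 to 7.81 on wild type arrays, and feeder markers are lowest on both arrays numbered 1.

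The rest of the Bmp pathway was read from a list of other ligands, receptors, Smads, inhibitors, targets and E proteins, with each gene at its brightest tested probe set. Of 40 tested genes, 0 passed limma's threshold without the block, against 0.736% of 12915 genes, and 4 had an unadjusted p under 0.05, against 13.4%. With the replicate block 3 of the 40 passed, 1 higher and 2 lower, against 9.87% of all genes (4.13% higher, 5.75% lower). Their median difference was 0.06.

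At the level of the transducers, Smad1 and Smad4 went in opposite directions. Smad1 (1448208_at), which carries the Bmp signal from the receptors, read 10.07, 10.31 and 10.39 in wild type and 9.65, 9.72 and 9.72 in knockout cells, with no overlap. Its difference was -0.56 ± 0.13 without the block (SE; limma adjusted p = 0.118). In the blocked fit it fell (limma adjusted p = 0.00554). A second Smad1 probe set differed by -0.41 (limma adjusted p = 0.0229 with the replicate block) and the third by -0.12. Smad1 lies on chromosome 8, whose 709 tested genes differed by -0.34 at the median, with 86.3% below 0. The median was 0.01 for the other autosomes and X, with 48.0% below 0. On that chromosome 22.0% of genes were as low as Smad1 or lower, and the part of the chromosome-wide shift in the Smad1 value was not tested.
Smad4 (1422487_at), the partner shared by Bmp and Nodal signals, read 11.45, 11.30 and 11.35 in wild type and 11.87, 11.73 and 11.64 in knockout cells, again with no overlap. The difference of 0.38 ± 0.10 (SE) missed the threshold without the block (adjusted p = 0.171 in limma) and passed with it (0.00921). The other Smad4 probe sets were higher by 0.28 and 0.22 but missed the threshold in both fits (blocked adjusted p = 0.0555 and 0.188 in limma). Smad5, the third tested transducer, differed by 0.28 at its brightest probe set (adjusted p = 0.209 in the blocked limma fit). Its other probe sets disagreed in sign, at -0.26 (1451873_a_at) and 0.61 (1421047_at), and neither passed in either fit. With the block, the call of Smad1 was lost without both arrays numbered 3 (adjusted p = 0.0753). The call of Smad4 was lost without both arrays numbered 2 or 3 (0.0712 and 0.0534).

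Tcf12, which encodes an E protein that Id proteins bind, was lower in the knockout. Its brightest probe set (1427670_a_at) read 10.58, 10.91 and 10.91 in wild type and 9.81, 10.47 and 10.39 in knockout cells, without overlap. The difference of -0.58 ± 0.19 (SE) missed the threshold without the block (limma adjusted p = 0.280) and passed with it (0.00397), also without both arrays of any 1 number. Its other tested probe sets differed by -0.45, -0.71 and -0.08. The calls of Smad1, Smad4 and Tcf12 with the block were all lost without the intensity trend. Of the other E proteins, Tcf3 differed by 0.17 and Tcf4 by 0.30, and neither passed at its brightest probe set. A dimmer Tcf4 probe set (1424089_a_at), picked out after its value was seen, was higher by 0.43 with the replicate block (limma adjusted p = 0.0392).

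In the remaining roles 0 genes passed in either fit. The 10 tested receptors and coreceptors ran from -0.38 to 0.42, with the type I receptor Bmpr1a at -0.23 and the type II receptor Bmpr2 at 0.01. The 6 intracellular inhibitors ran from -0.31 (Tob1) to 0.09, with Skil at 0.04. The 6 other ligands ran from -0.81 to 0.33 and were dim, with Gdf2 and Bmp7, the brightest, at -0.46 and 0.01. The 7 secreted antagonists, which bind ligands outside the cell, ran from -0.59 to 0.42, with Twsg1 at 0.17 and Grem1 at -0.05. The 5 other targets ran from -0.21 (Gata2) to 0.78, with Hey1 at -0.01. Of 59 listed genes, 55 had a probe set, and 15 of these were too dim to test, among them Bmp2, Smad9 and the antagonist gene Nog.

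**Figure D5:**
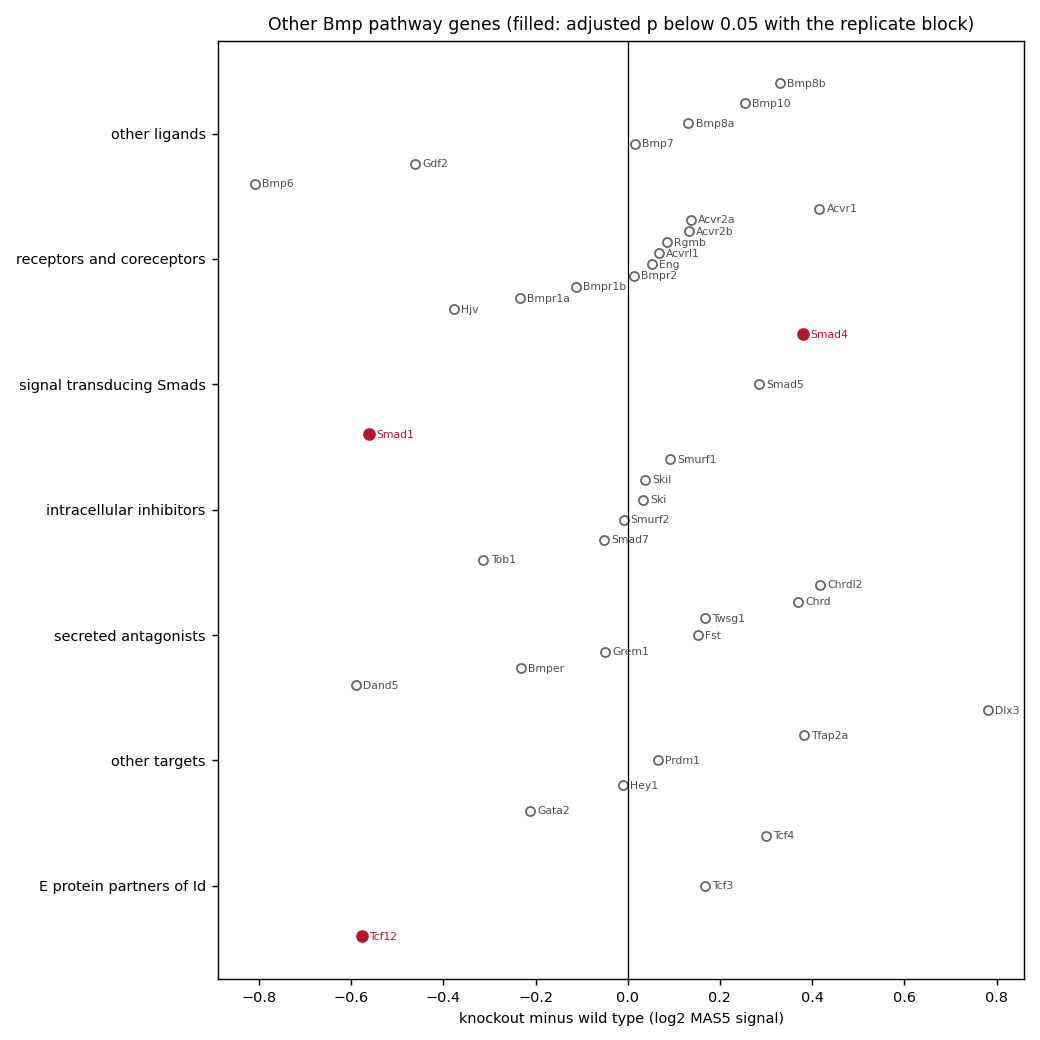
Knockout minus wild type difference in log2 MAS5 signal (x axis) for the 40 tested other genes of the Bmp pathway, grouped by role (y axis), each at its brightest probe set. Filled points are the 3 genes past adjusted p 0.05 with the replicate block, Smad1 (-0.56), Tcf12 (-0.58) and Smad4 (0.38).

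The genes whose values over the 6 arrays were most like those of Bmp4 were Ddx59, Susd2, Atp5j2, Ooep and Mars2, with Pearson r between 0.985 and 0.992 among 12317 genes compared. Their differences between the genotypes were smaller than that of Bmp4, from -0.49 for Susd2 to -0.15 for Atp5j2, and of the 5 Ooep alone passed in the blocked fit (-0.40; limma adjusted p = 0.00649). For Id1 r was 0.88, for Id3 -0.72 and for Id2 -0.10, each at its brightest probe set. These are descriptions over 6 arrays that share genotype and replicate number, and 60 of the genes compared had r above 0.95.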

How the data were processed

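The authors deposited 1 table of log2 signals for 45037 probe sets on 6 Affymetrix Mouse Genome 430 2.0 arrays. The signals came from MAS5, per the submitters' processing notes, and no version is given in the sources used here. The log2 scale was read from the values, since 2 raised to each value has a 2% trimmed mean between 497.03 and 497.33 on every array, as after scaling to a common target. No pseudocount or further scaling was applied. As detection calls were not used here, differences of dim probe sets rest on MAS5 signals without a background bound. For arrays, their number limits the precision.

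Gene names are those of the platform annotation, updated by gene identifier for 34741 probe sets against RefSeq (GRCm38.p6): 34945 named 1 gene, 932 several and 9160 were unnamed here. Samples were grouped by their titles. The filter on the mean (40th percentile or above) kept 27022 probe sets. Knockout was compared with wild type with limma 3.58.1 in R 4.3.3 (lmFit, eBayes with intensity trend, two-sided, Benjamini-Hochberg adjustment over all tested probe sets, threshold 0.05). The planned fit had no block. Replicate numbers counted as pairs because deviations of same-numbered arrays correlated above 0.1 in all 3 pairs, although wild type 2 and knockout 3 (r = 0.23) correlated as strongly as wild type 2 and knockout 2. The fits were run on simulated data with independent normal noise whose size followed the fitted intensity trend. Of 100 changes of 1 log2 unit, 82 were recovered without the block and 75 with it, at 9 and 11 false calls. Because the noise was drawn from the same model, this cannot check the trend or the block on the real arrays. No array was a copy of another.

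The members, pathway and marker lists were chosen with earlier results of these data known. The genes named are Setd2, all members, the pathway genes past the threshold in either fit, the 2 brightest genes of each role and marker list, and the 5 genes most like Bmp4. Genes outside this rule are given as range ends, as counts or as marked. Alternatives were no filter or a 20th percentile filter, quantile normalization, centring on array medians, no trend, the replicate block, a gene's probe sets averaged, and each array left out.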

Additional observations from a re-analysis of the deposited data

How the results depend on the processing

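The planned fit without a block called 175 probe sets, 0 members and 0 other pathway genes. Without the intensity trend it called 57, and with the replicate block 2129, with 3 members and 3 pathway genes. The alternatives that combine the block with another choice, or leave out both arrays of a number, were chosen after seeing the data. With the block and no filter, quantile normalization, array medians or no trend, the totals were 1599, 2113, 2200 and 12, the members called 2, 3, 2 and 0, and the pathway genes called 3, 3, 3 and 0. No member was called without the trend, and without the block only Id1 was, when both arrays numbered 1 were left out. The block changed no call of Id3, Msx1, Msx2, Smad6, Bambi or Id4, nor of Dusp9 with all arrays. Leaving out single arrays, or both arrays of a number with or without the block, gave totals from 16 to 3352, members from 0 to 4 and pathway genes from 0 to 5. In the planned fit the total was 95, 44 and 31 without wild type replicate 1, 2 and 3, and 431, 43 and 36 without knockout replicate 1, 2 and 3, with 0 members each time.

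The difference of Bmp4 stayed between -1.45 and -0.70 and that of Id1 between -1.05 and -0.38 whichever arrays were left out, and the brightest Id2 probe set between 0.14 and 0.79. The sign of some other probe sets turned in at least 1 such fit. Their ranges were -0.036 to 0.85 for Id2 (1422537_a_at), -0.043 to 0.22 for Id3, -0.21 to 0.66 and -0.68 to 0.0043 for Id4 (1423259_at and 1450928_at), -0.014 to 0.39 for Msx1, -0.093 to 0.66 for Msx2, -0.28 to 0.70 for Smad6 and -0.090 to 0.14 for Bambi. For Dusp9 they were -0.39 to 0.10 (1433845_x_at), -0.46 to 0.12 (1454737_at) and -0.73 to 0.065 (1433844_a_at). Bambi also turned to -0.016 under array medians, with and without the replicate block. The cause of these turns was not tested. With 3 arrays per genotype, dim genes such as Msx1, Msx2 and Smad6 could differ by over 0.5 unseen.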
